A study of Ambystoma mexicanum with 9 samples.

Results

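Chromatin modifier and remodeller genes were followed in the spinal cord of the axolotl, a salamander that regrows its cord after injury. The genes were chosen by symbol alone: the families HDAC, SIRT, SETD, PRMT, DNMT, KDM, CHD, SMARC, BRD and CBX, together with EZH2, SUZ12, EED, RBBP4, RBBP7, MTA1 and MTA2. On the axolotl array, 119 of 20035 probe sets carried such a symbol, and they stood for 79 of the 8639 genes with a symbol. They were set apart as 14 deacetylases, 18 methyltransferases with their partner subunits, 11 demethylases, 25 remodellers and 11 readers. EZH1 is not analysed here.

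The 9 arrays fell into 3 groups of 3, and 10 animals with a body length of 2 to 3 cm were pooled for every array. The 1dpi_IVM group was cord taken 1 day after injury from animals injected with ivermectin, which keeps glycine-gated chloride channels open and so shifts the resting potential of cells that carry them. The 1dpi group was cord taken 1 day after injury, and the 0dpi group was uninjured cord. By the series text, ivermectin or water went into the central canal and a segment of cord was then taken out. The labels differ from this: for 1dpi they name a crush and no injection, for 1dpi_IVM the injection without the injury, and for 0dpi no injection, so in 1dpi against 0dpi the injury and an injection cannot be told apart. In 1dpi_IVM against 1dpi, ivermectin, the act of injection and a difference in the kind of injury cannot be told apart from the labels either. The arrays of a group are separate pools, so the tests measure the spread between pools and not between animals.

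DNA in the nucleus is wound on histones, and enzymes that add or remove acetyl and methyl groups on histone tails set how open a gene is. Deacetylases and the Polycomb methyltransferase complex are mostly linked to silencing, remodellers slide or evict nucleosomes with energy from ATP, and readers bind the marks through bromodomains or chromodomains. Many of these proteins are also needed to copy and package chromatin when cells divide, so their transcripts are often abundant in dividing tissue. The roles given below are known mainly from mammals.

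The arrays carried transcripts of cord cells and of tissue around the cord. The glial genes GFAP and VIM and the neuronal genes NEFL, NEFM and STMN2 were all above the negative controls in all 3 groups, whereas the neuronal gene SYT1 was not. Marker lists of other cells moved with the groups. Over 34 measured genes of dividing cells, of 39 listed, the mean log2 signal lay between 8.68 and 8.70 in the 1dpi_IVM arrays, between 7.50 and 7.52 in the 1dpi arrays and between 8.51 and 8.56 in the 0dpi arrays. No measured gene of that list was at the negative control level, and 33 of the 34 were called higher in 1dpi_IVM than in 1dpi, the exception being BIRC5, called lower. Over 15 of 19 skeletal muscle genes the mean was 10.36 to 10.37 in 1dpi_IVM, 12.11 to 12.14 in 1dpi and 10.45 to 10.50 in 0dpi, and over 5 of 10 erythrocyte genes it was 6.47 to 6.56 in 1dpi_IVM, 7.57 to 7.66 in 1dpi and 6.64 to 6.67 in 0dpi. All 15 muscle genes and all 5 erythrocyte genes were called lower in 1dpi_IVM than in 1dpi. In that comparison 30.4% of all genes were called higher and 26.1% lower. Every value below is a level per amount of total RNA from mixed tissue, in which fewer cells of a type and less RNA per cell cannot be told apart. The part of these shifts in the chromatin results was not tested.

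The first question was whether chromatin genes differed between 1dpi_IVM and 1dpi cords, which by their labels differ at least in ivermectin. Among the 79 genes, 26 were called higher and 15 lower in 1dpi_IVM than in 1dpi, and 38 were not called (limma, Benjamini-Hochberg adjusted p below 0.05). Together these calls made up 51.9% of the genes, close to the 56.5% called over all 8639 genes, of which 30.4% were higher and 26.1% lower. The 2 groups did not overlap in 47 of the 79 genes, against 63.0% of all genes. An unadjusted p below 0.05 was reached by 48 of the 79, beside 5289 of the 8639. The median log2 difference was 0.05, beside 0.00 over all genes, and the single values ran from -0.79 to 1.14 with standard errors of 0.04 to 0.12 (n = 3 arrays per group). By the brightest probe set of each gene, which is used throughout unless another is named, EZH2 and SUZ12 were the only members with a difference of at least 2-fold at an unadjusted p below 0.05, and both were higher. Over all genes, 3.11% passed this rule as higher and 3.50% as lower. In 1dpi against 0dpi 0 members passed it (3.19% of all genes higher and 2.69% lower), and in 1dpi_IVM against 0dpi 0 members did (0.0232% higher and 0.104% lower).

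The second question was whether injured cord differed from uninjured cord. In 1dpi against 0dpi, 17 of the 79 genes were called higher and 28 lower. All genes were called in 54.8% of cases, with 25.3% higher and 29.5% lower, and the members were called in 57% of cases. The groups did not overlap in 48 members, against 61.4% of all genes, and the median log2 difference was -0.05, beside -0.00 over all genes. In 1dpi_IVM against 0dpi, KDM6B and BRD2 were called lower and 0 members were called higher. By limma, 13 of the 79 members had an unadjusted p below 0.05, beside 1630 of the 8639 genes. The share called was 2.53%, beside 5.83% of all genes (2.16% higher and 3.67% lower), and the groups did not overlap in 19 members, against 24.7% of all genes. These 3 comparisons share arrays, so a low value in the 1dpi arrays enters the first comparison as a positive difference and the second as a negative one.

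**Figure D1:**
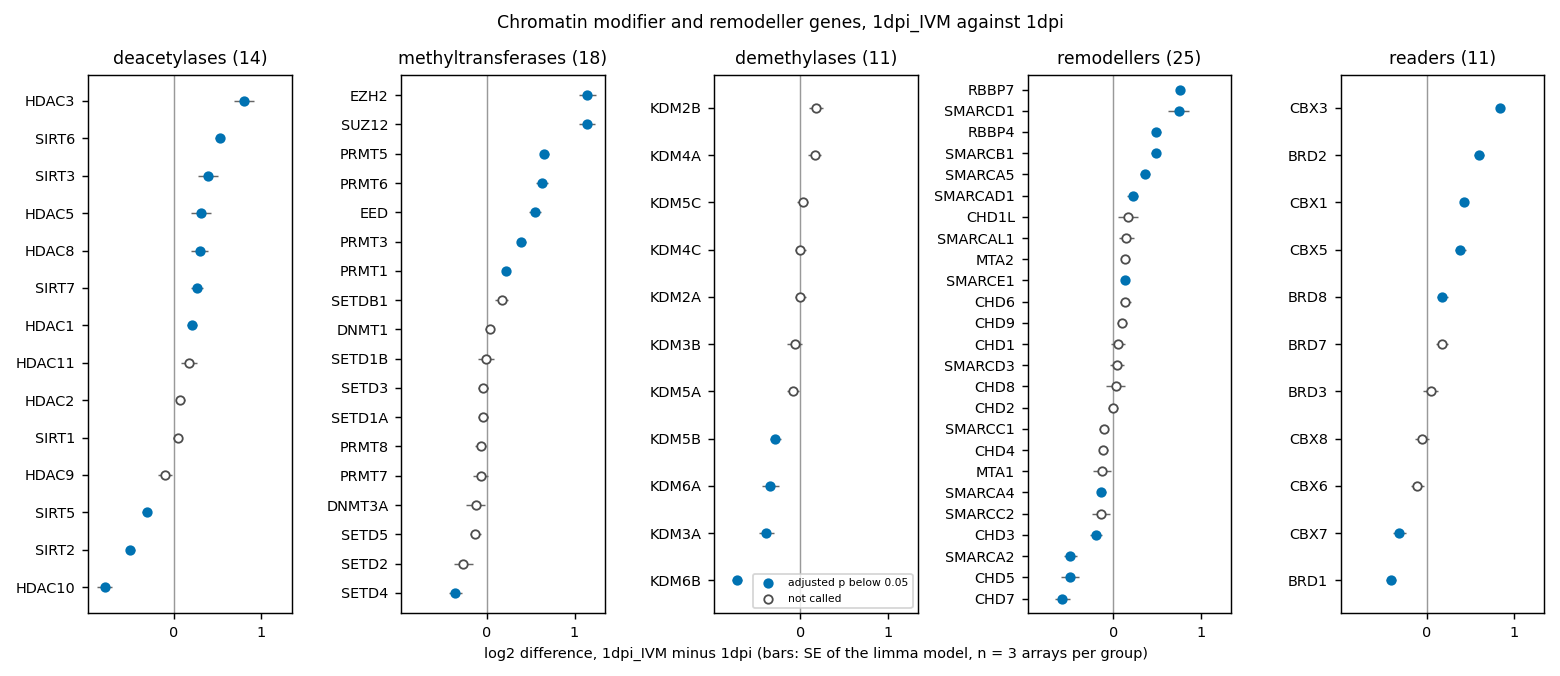
Log2 difference of each of the 79 genes, 1dpi_IVM minus 1dpi, on the horizontal axis, with 1 panel per class and genes sorted by value. Bars are standard errors of the limma model, filled points were called and open points were not. EZH2 and SUZ12 stand farthest right at 1.14, and HDAC10 farthest left at -0.79, while poly-A centring would move every point right by 0.65.

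Directions are relative to the typical gene, because the deposited values bring all arrays to 1 distribution. Poly-A spike-ins, foreign RNAs mixed into each sample ahead of labelling, averaged 7.43 ± 0.05 in 1dpi_IVM, 8.08 ± 0.04 in 1dpi and 7.54 ± 0.03 in 0dpi (log2, SD, n = 3 arrays each). If each array was centred on them, the median of all probe sets moved to 0.65 in 1dpi_IVM against 1dpi, -0.55 in 1dpi against 0dpi and 0.11 in 1dpi_IVM against 0dpi. The share of higher probe sets among those called then went to 94% in place of 53.7% in the first comparison, to 6.95% in place of 46.7% in the second, and to 82.4% in place of 40.3% in 1dpi_IVM against 0dpi. Of the 15 chromatin genes called lower in 1dpi_IVM than in 1dpi, HDAC10 (-0.14, adjusted p = 0.118) and KDM6B (-0.0783, adjusted p = 0.321) lay below 0 on that scale, neither of them called, and the other 13 lay above it. The shift is the same for every gene and upward in this comparison, so genes called higher could only move further up. Which scale is nearer to the RNA content of a cell was not tested.

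By the brightest probe sets, the largest differences in 1dpi_IVM against 1dpi lay in the Polycomb repressive complex that places methyl groups on lysine 27 of histone H3. EZH2, its catalytic subunit, had log2 signals of 8.59, 8.57 and 8.70 in 1dpi_IVM, 7.40, 7.53 and 7.50 in 1dpi, and 8.45, 8.49 and 8.10 in 0dpi. The 1dpi arrays were the low ones and overlapped with neither other group, and 0dpi replicate 3 lay below the other uninjured arrays. EZH2 was 2.21-fold higher in 1dpi_IVM than in 1dpi (log2 difference 1.14 ± 0.10, SE, adjusted p = 3.32e-06) and was lower in 1dpi than in 0dpi by a log2 difference of -0.87 (adjusted p = 2.81e-05). Between 1dpi_IVM and 0dpi the difference was 0.27 ± 0.10 and was not called (adjusted p = 0.154), although the arrays did not overlap.

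SUZ12, a zinc finger subunit that the complex needs for its activity, had log2 signals of 4.89, 4.85 and 4.72 in 1dpi_IVM, 3.74, 3.78 and 3.53 in 1dpi, and 4.33, 4.53 and 4.61 in 0dpi. The groups were separate, with 1dpi low and 1dpi_IVM high. The probe set was dim, and in the 1dpi arrays it lay only slightly above the highest mean of a negative control, 3.47. SUZ12 was 2.20-fold higher in 1dpi_IVM than in 1dpi (1.14 ± 0.09, adjusted p = 1.96e-06), lower in 1dpi than in 0dpi (-0.81, adjusted p = 2.85e-05), and 0.33 ± 0.09 apart between 1dpi_IVM and 0dpi, which was not called (adjusted p = 0.0634).

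EED, the subunit that binds the finished mark, followed the same order of groups with smaller steps. Its log2 signals were 7.50, 7.51 and 7.58 in 1dpi_IVM, 6.94, 6.87 and 7.14 in 1dpi, and 7.35, 7.43 and 7.36 in 0dpi, with the 1dpi arrays lowest and no overlap between any pair of groups. It was higher in 1dpi_IVM than in 1dpi by 0.55 ± 0.07 (adjusted p = 7.1e-05) and lower in 1dpi than in 0dpi by a log2 difference of -0.40 (adjusted p = 0.000725).

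RBBP4 and RBBP7 encode histone-binding proteins that sit in the Polycomb complex and also in deacetylase, remodelling and chromatin assembly complexes. RBBP4 had 10.16, 10.04 and 10.03 in 1dpi_IVM, 9.58, 9.54 and 9.64 in 1dpi, and 10.01, 10.04 and 10.05 in 0dpi. The 1dpi arrays were again the low ones, and 1dpi_IVM and 0dpi overlapped. RBBP7 had 10.84, 10.86 and 10.88 in 1dpi_IVM, 10.06, 10.14 and 10.10 in 1dpi, and 10.84, 10.77 and 10.72 in 0dpi, and its 1dpi arrays lay apart from both other groups. The differences in 1dpi_IVM against 1dpi were 0.49 ± 0.05 for RBBP4 (adjusted p = 2.05e-05) and 0.76 ± 0.05 for RBBP7 (adjusted p = 4.16e-07), and those in 1dpi against 0dpi were -0.45 (adjusted p = 4.53e-05) and -0.68 (adjusted p = 1.06e-06).

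All 5 genes described so far were thus called higher in 1dpi_IVM than in 1dpi. The dividing-cell list moved the same way, with a median log2 difference of 1.08 over its 34 genes, and its part in these values was not tested. Other Polycomb genes did not share 1 direction on the scale as deposited. Of 18 measured Polycomb partners, 4 were called higher in 1dpi_IVM than in 1dpi (BAP1 0.83, AEBP2 0.55, PCGF1 0.40 and MTF2 0.34). Another 4 were called lower (PCGF5 -0.41, YY1 -0.38, RYBP -0.29 and PHC3 -0.19), all 4 smaller in size than the poly-A shift of 0.65. The median was -0.05, and over all genes 30.4% were called higher and 26.1% lower. BAP1 encodes a deubiquitinase that acts on the Polycomb-marked histone H2A, AEBP2 and MTF2 are accessory subunits of the methyltransferase complex, and PCGF1, PCGF5, RYBP and PHC3 belong to the sister complex that ubiquitinates H2A.

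**Figure D2:**
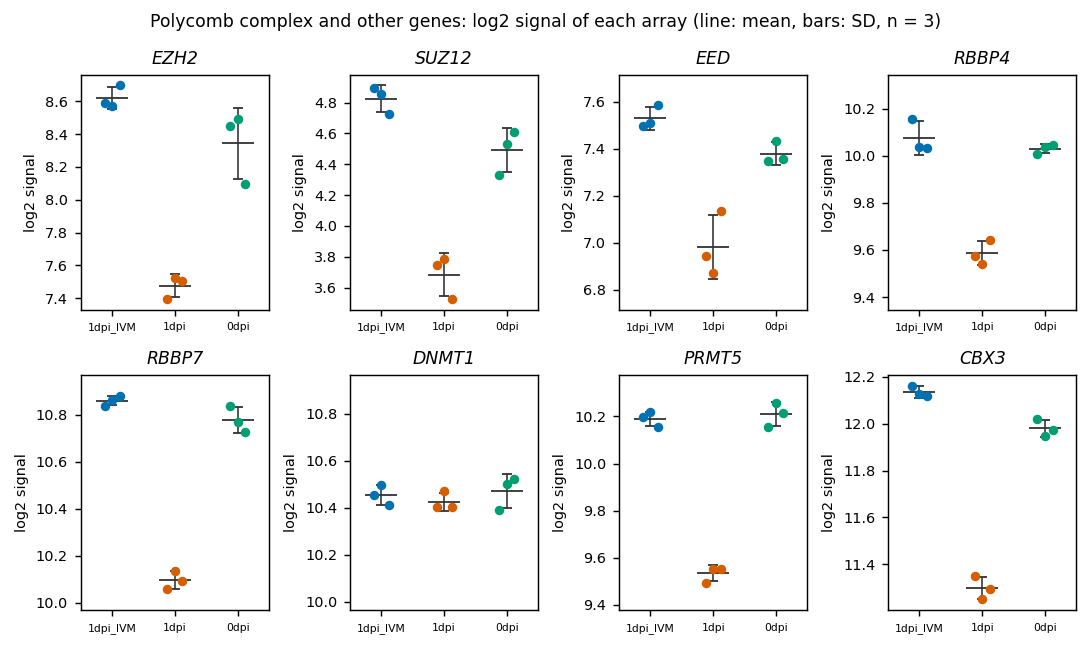
Log2 signal of each array for 8 genes, with the 3 groups on the horizontal axis; points are arrays, the line is the group mean and bars are the SD (n = 3). The 1dpi arrays are the lowest for EZH2, SUZ12, EED, RBBP4, RBBP7, PRMT5 and CBX3, and the groups of the DNMT1 probe set overlap.

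The remaining methyltransferases act mainly on arginine (PRMT) or on lysine (SETD). Of 6 PRMT genes, 4 were called higher in 1dpi_IVM than in 1dpi and 0 lower, and the other 2, PRMT7 and PRMT8, were at -0.07 each (4 of 6 at an unadjusted p below 0.05), beside 30.4% of all genes higher and 26.1% lower. Of 7 SETD genes, 0 were called higher, and SETD4 alone was called lower (-0.36, adjusted p = 0.00222; after poly-A centring it lay above 0), with 4 of 7 at an unadjusted p below 0.05. The other 2 SETD4 probe sets were not called in 1dpi_IVM against 1dpi and lay at 0.14, without overlap of the groups (adjusted p = 0.0566), and at 0.02, so the SETD4 call rests on 1 of 3 probe sets. In 1dpi against 0dpi, 0 PRMT genes were called higher and 4 lower, and 3 SETD genes, SETD3, SETD4 and SETD5, were called higher and 0 lower, beside 25.3% and 29.5% of all genes, although none of those 3 stayed above 0 after poly-A centring. The SETD5 call did not hold if replicate 1 of 1dpi (adjusted p = 0.0546) or of 0dpi (0.056) was dropped.

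PRMT5, which places symmetric dimethyl groups on arginines of histones and splicing factors, had log2 signals of 10.20, 10.22 and 10.15 in 1dpi_IVM, 9.49, 9.55 and 9.55 in 1dpi, and 10.16, 10.26 and 10.21 in 0dpi. Only the 1dpi arrays were low, and the other groups lay at the same level. The difference was 0.66 ± 0.05 in 1dpi_IVM against 1dpi (adjusted p = 1.21e-06), -0.68 in 1dpi against 0dpi (adjusted p = 1.08e-06) and -0.02 in 1dpi_IVM against 0dpi. PRMT6, PRMT3 and PRMT1, also arginine methyltransferases, were higher in 1dpi_IVM than in 1dpi by 0.63 ± 0.07, 0.39 ± 0.05 and 0.22 ± 0.04.

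SETD3, a methyltransferase best known for acting on actin, gave opposite results from its 2 probe sets. The brighter one had 7.83, 7.79 and 7.70 in 1dpi_IVM, 7.72, 7.87 and 7.87 in 1dpi, and 7.67, 7.69 and 7.56 in 0dpi, and was called higher in 1dpi than in 0dpi (0.18 ± 0.06, adjusted p = 0.0331). Dropping 1dpi replicate 2 (0.106), 1dpi replicate 3 (0.106) or 0dpi replicate 3 (0.119) ended that call. The dimmer one had 4.52, 4.35 and 4.32 in 1dpi_IVM, 3.98, 4.08 and 4.23 in 1dpi, and 4.32, 4.72 and 4.35 in 0dpi, and was called lower in 1dpi than in 0dpi (-0.37 ± 0.11, adjusted p = 0.0167). No direction is therefore given for this gene.

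SETD2, which trimethylates lysine 36 of histone H3, was at -0.27 ± 0.10 in 1dpi_IVM against 1dpi with overlapping groups, just past the threshold (adjusted p = 0.0512, not called). SETD1A and SETD1B, lysine 4 methyltransferases, were at -0.05 and -0.01. SETDB1, a lysine 9 methyltransferase, was at 0.17 by its brighter probe set (adjusted p = 0.0733, not called) and at 0.38 by its dimmer one (adjusted p = 0.0113).

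DNMT1, which copies DNA methylation onto new strands, also depended on the probe set. The brightest of its 3 had 10.45, 10.50 and 10.41 in 1dpi_IVM, 10.40, 10.47 and 10.40 in 1dpi, and 10.39, 10.50 and 10.52 in 0dpi, with all groups overlapping and a difference of 0.03 ± 0.05 in 1dpi_IVM against 1dpi (adjusted p = 0.688). The dimmest had 5.54, 5.75 and 6.44 in 1dpi_IVM, 5.21, 4.81 and 4.85 in 1dpi, and 6.19, 5.51 and 5.43 in 0dpi. That one was called higher in 1dpi_IVM than in 1dpi (0.95 ± 0.25, adjusted p = 0.00775), as was the one between (0.90 ± 0.28, adjusted p = 0.0193). Both dimmer probe sets spread widely within groups, with SDs of 0.47 and 0.40 in 1dpi_IVM and 0.42 and 0.46 in 0dpi, whereas the brightest had SDs of 0.04 and 0.07. DNMT3A, which places new DNA methylation, was at -0.13 ± 0.11 and was not called (adjusted p = 0.354).

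Partners of DNA methylation lay outside the symbol rule and were measured for 5 of 9 listed genes. Of these 5, 4 were called higher in 1dpi_IVM than in 1dpi and 1 lower, beside 30.4% and 26.1% of all genes. UHRF1, which guides DNMT1 to newly copied DNA, was higher in 1dpi_IVM than in 1dpi by 2.00 ± 0.05 (adjusted p = 1.09e-09) and higher than in 0dpi by 0.44 ± 0.05 (adjusted p = 0.00133). TDG, a glycosylase that removes oxidised methylcytosine, HELLS, a helicase needed for DNA methylation, and TET2, which oxidises methylcytosine, were higher in 1dpi_IVM than in 1dpi by 1.43, 0.82 and 0.62, and TET3, at the negative control level, was called lower at -0.21, a size below the poly-A shift of 0.65. Of 17 other histone methylation genes, 6 were called higher and 4 lower in 1dpi_IVM than in 1dpi, beside 30.4% and 26.1% of all genes. The widest values were those of SUV39H1 (1.48 ± 0.12), which methylates lysine 9 of histone H3, and of SMYD1 (-0.97 ± 0.05), a methyltransferase of heart and skeletal muscle. The skeletal muscle list had a median of -1.79 in this comparison.

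Deacetylases were called in 10 of 14 genes in 1dpi_IVM against 1dpi, with 7 higher and 3 lower and a median log2 difference of 0.19, beside 56.5% of all genes called, 30.4% higher and 26.1% lower. After poly-A centring 0 of the 3 were called lower, and HDAC10 alone lay below 0. Between 1dpi and 0dpi, 3 were called higher in 1dpi and 5 lower, with a median of -0.15, beside 25.3% and 29.5% of all genes. Of the 3 higher genes HDAC10 alone was above 0, and called, after poly-A centring. The 8 calls became 5 without 1dpi replicate 1 or 0dpi replicate 3. Against 0dpi, 1dpi_IVM had 0 called deacetylases by limma, with 2 of 14, SIRT2 and SIRT6, at an unadjusted p below 0.05. Over all genes 5.83% were called in that comparison, and 1630 of 8639 had an unadjusted p below 0.05. HDAC9 and HDAC11 lay at or below the negative control level, at log2 differences of -0.10 and 0.18 that were not called.

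The class I enzymes HDAC1, HDAC2 and HDAC3 remove acetyl groups in nuclear corepressor complexes. HDAC1 had log2 signals of 9.35, 9.35 and 9.34 in 1dpi_IVM, 9.11, 9.17 and 9.13 in 1dpi, and 9.28, 9.22 and 9.41 in 0dpi. Its lowest values were those of the 1dpi arrays, separate but only by a small step. HDAC1 was higher in 1dpi_IVM than in 1dpi by 0.21 ± 0.06 (adjusted p = 0.00849), and its call as lower in 1dpi than in 0dpi (-0.17 ± 0.06, adjusted p = 0.0293) was lost without 1dpi replicate 1 (0.0743), 1dpi replicate 3 (0.0745) or 0dpi replicate 3 (0.112).

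HDAC2 had 10.28, 10.22 and 10.30 in 1dpi_IVM, 10.13, 10.22 and 10.24 in 1dpi, and 10.24, 10.18 and 10.20 in 0dpi, so that all groups overlapped. Its difference in 1dpi_IVM against 1dpi was 0.07 ± 0.05 and was not called (adjusted p = 0.253). HDAC3, the catalytic partner of the NCOR corepressors, had 5.75, 5.70 and 5.87 in 1dpi_IVM, 4.67, 5.15 and 5.10 in 1dpi, and 5.67, 5.60 and 5.76 in 0dpi. Low values marked the 1dpi arrays, replicate 1 most of all, and 1dpi_IVM overlapped with 0dpi. HDAC3 had the highest difference among the deacetylases, 0.80 ± 0.11 in 1dpi_IVM against 1dpi (1.74-fold, adjusted p = 0.000154), and was lower in 1dpi than in 0dpi (-0.70, adjusted p = 0.000405); without 1dpi replicate 1 the first value was 0.65.

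HDAC10, a class IIb enzyme that acts on polyamines, lay at the other end. Its log2 signals were 5.21, 5.18 and 5.21 in 1dpi_IVM, 5.98, 6.10 and 5.90 in 1dpi, and 5.04, 5.36 and 5.31 in 0dpi. Here the 1dpi arrays were the high ones, apart from both other groups. The difference was -0.79 ± 0.09 in 1dpi_IVM against 1dpi (adjusted p = 2.11e-05) and 0.76 in 1dpi against 0dpi (adjusted p = 3.2e-05). A second, dimmer probe set of HDAC10 had 4.90, 4.98 and 5.11 in 1dpi_IVM, 4.98, 4.92 and 4.87 in 1dpi, and 5.05, 4.86 and 4.87 in 0dpi, overlapping throughout, with a difference of 0.07 that was not called (adjusted p = 0.408).

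HDAC5, a class IIa enzyme that shuttles out of the nucleus when phosphorylated, and HDAC8, a class I enzyme, were called higher in 1dpi_IVM than in 1dpi at 0.31 ± 0.12 and 0.29 ± 0.09. The HDAC5 call was lost without any 1 of 4 arrays (1dpi_IVM replicate 2 at adjusted p = 0.0608, 1dpi_IVM replicate 3 at 0.155, 1dpi replicate 1 at 0.112 and 1dpi replicate 2 at 0.103). That of HDAC8 did not hold if 1dpi_IVM replicate 2 (0.0863), 1dpi replicate 1 (0.076) or 1dpi replicate 2 (0.0641) was dropped.

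Sirtuins, deacylases that consume NAD, split by gene. SIRT6, which acts on histone H3 and in DNA repair, had 8.07, 8.10 and 8.02 in 1dpi_IVM, 7.51, 7.49 and 7.62 in 1dpi, and 7.84, 7.87 and 7.92 in 0dpi. Its groups were all separate, with 1dpi lowest, and it was higher in 1dpi_IVM than in 1dpi by 0.52 ± 0.05 (adjusted p = 1.36e-05) and lower in 1dpi than in 0dpi (-0.33, adjusted p = 0.000376). SIRT7, a nucleolar deacetylase, and SIRT3, a mitochondrial one, were higher in 1dpi_IVM than in 1dpi by 0.26 ± 0.07 and 0.39 ± 0.11, and the SIRT3 call was lost without 1dpi_IVM replicate 3 (0.0593) or 1dpi replicate 2 (0.0579).

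SIRT5, a mitochondrial enzyme that removes succinyl and malonyl groups, had 9.51, 9.50 and 9.51 in 1dpi_IVM, 9.84, 9.79 and 9.83 in 1dpi, and 9.47, 9.35 and 9.47 in 0dpi. Here 1dpi was the high group, and SIRT5 was lower in 1dpi_IVM than in 1dpi (-0.31 ± 0.05, adjusted p = 0.000333) and higher in 1dpi than in 0dpi (0.39, adjusted p = 7.37e-05). SIRT2, a largely cytoplasmic tubulin deacetylase that is abundant in myelinating glia, had 7.65, 7.67 and 7.65 in 1dpi_IVM, 8.16, 8.15 and 8.15 in 1dpi, and 7.72, 7.84 and 7.85 in 0dpi. It too was high in 1dpi, lower in 1dpi_IVM by a log2 difference of -0.50 ± 0.05 (adjusted p = 1.12e-05). SIRT5 and SIRT2 both lay above 0 after poly-A centring. SIRT1, the nuclear sirtuin, had 8.59, 8.48 and 8.47 in 1dpi_IVM, 8.44, 8.50 and 8.47 in 1dpi, and 8.47, 8.44 and 8.52 in 0dpi, with overlapping groups and a difference of 0.05 ± 0.05 that was not called (adjusted p = 0.492).

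**Figure D3:**
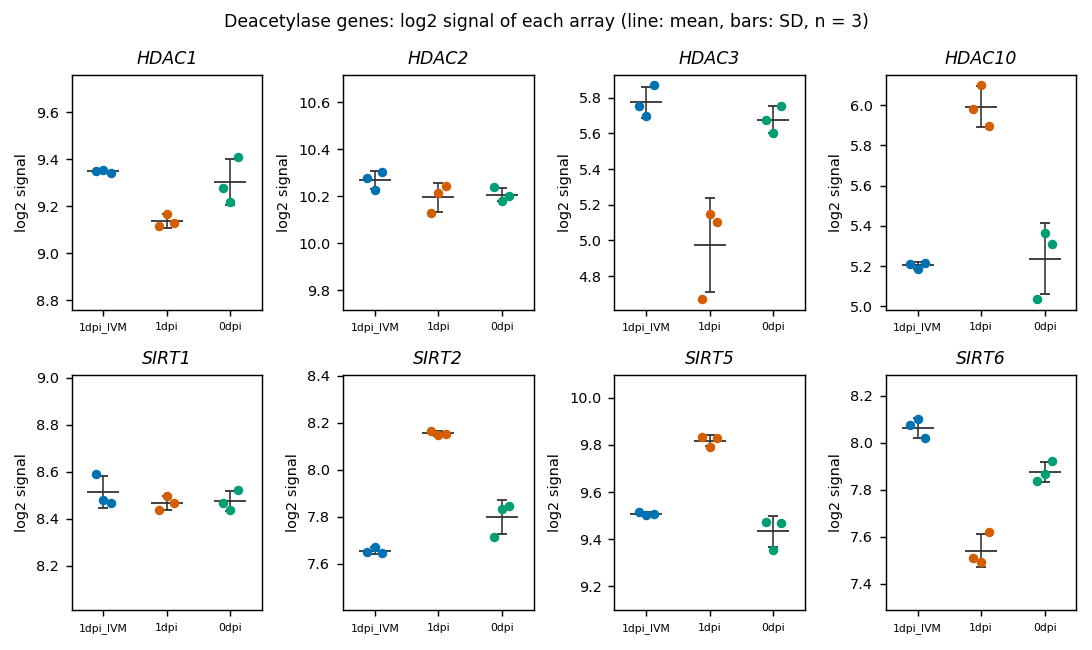
Log2 signal of each array for 8 deacetylase genes, with the 3 groups on the horizontal axis; points are arrays, the line is the group mean and bars are the SD (n = 3). The 1dpi arrays are lowest for HDAC1, HDAC3 and SIRT6 and highest for HDAC10, SIRT2 and SIRT5, though after poly-A centring SIRT2 and SIRT5 are above 0 in 1dpi_IVM against 1dpi, and HDAC2 and SIRT1 overlap.

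The 16 measured partners of the deacetylases had a median of 0.12 in 1dpi_IVM against 1dpi, with 7 at an unadjusted p below 0.05. Of the 16, 7 were called higher and 0 lower, beside 30.4% and 26.1% of all genes. They included TBL1XR1 (0.70 ± 0.11), which joins HDAC3 in the NCOR complex, RCOR3 (0.44 ± 0.08) of the CoREST family, and GATAD2A (0.34 ± 0.05) and MBD3 (0.22 ± 0.06) of the NuRD complex. The enzymes that work in the other direction, acetyltransferases and their partners, were called higher in 5 of 11 measured cases and lower in 1. These counts stand beside the same shares of all genes. The lower gene was KAT2A (-0.25 ± 0.08, above 0 after poly-A centring by 0.65). ING3 (0.65 ± 0.06), a subunit of the NuA4 complex, also differed between 1dpi_IVM and 0dpi (-0.36 ± 0.06, adjusted p = 0.00915), and KAT5 (0.47 ± 0.05) is the enzyme of that complex.

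Among the demethylases, 0 of 11 genes were called higher in 1dpi_IVM than in 1dpi and 4 were called lower, against 30.4% higher and 26.1% lower over all genes. At an unadjusted p below 0.05 there were 5, and the median was -0.06. After poly-A centring 10 of the 11 lay above 0. In 1dpi against 0dpi, the same class had 4 genes called higher (KDM3A, KDM5B, KDM6A and KDM6B, none above 0 after poly-A centring) and 2 lower (KDM2A and KDM4A), beside 25.3% and 29.5% of all genes. These 6 calls became 2 without 1dpi replicate 2 and 3 without 0dpi replicate 2 or 0dpi replicate 3.

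KDM6B, which removes methyl groups from lysine 27 of histone H3 and is known as an induced gene in inflamed and stressed cells, had log2 signals of 7.36, 7.21 and 7.31 in 1dpi_IVM, 7.95, 8.06 and 8.05 in 1dpi, and 7.71, 7.73 and 7.67 in 0dpi. The groups were fully separate, with 1dpi high, 0dpi between and 1dpi_IVM low. It was lower in 1dpi_IVM than in 1dpi (-0.73 ± 0.06, adjusted p = 1.46e-06), higher in 1dpi than in 0dpi (0.32 ± 0.06, adjusted p = 0.000694) and lower in 1dpi_IVM than in 0dpi (-0.41 ± 0.06, adjusted p = 0.00196). Each of these 3 calls held without any 1 array. After poly-A centring the difference from 1dpi was -0.0783 and no longer called (adjusted p = 0.321), that from 0dpi was -0.31 (adjusted p = 0.0256), and that of 1dpi against 0dpi turned negative (-0.23, adjusted p = 0.0106). Leukocyte genes, of which 11 of 15 were measured, had mean log2 signals of 7.17 to 7.20 in 1dpi_IVM, 7.51 to 7.54 in 1dpi and 7.30 to 7.35 in 0dpi, with 0 at the negative control level. The list did not move as 1: in 1dpi_IVM against 1dpi, 1 was called higher and 5 lower, beside 30.4% and 26.1% of all genes. The median there was -0.06, with values from -2.24 to 0.41. In 1dpi against 0dpi, 5 were called higher and 2 lower, beside 25.3% and 29.5% of all genes, with a median of 0.04. The part of these genes in the KDM6B values was not tested. A second KDM6B probe set lay at the negative control level, and the mean of both no longer gave a call in 1dpi_IVM against 0dpi.

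KDM6A, the relative of KDM6B with the same substrate, had 5.70, 5.39 and 5.31 in 1dpi_IVM, 5.69, 5.86 and 5.87 in 1dpi, and 5.64, 5.50 and 5.50 in 0dpi. 1dpi_IVM replicate 1 overlapped with the 1dpi arrays. Its call as lower in 1dpi_IVM than in 1dpi (-0.34 ± 0.10, adjusted p = 0.0131) was lost without 1dpi_IVM replicate 3 (0.0529), and its call as higher in 1dpi than in 0dpi (0.26, adjusted p = 0.0461) was lost without any 1 of 5 arrays (1dpi_IVM replicate 2 at 0.0558, 1dpi replicate 2 at 0.124, 1dpi replicate 3 at 0.129, 0dpi replicate 2 at 0.121 and 0dpi replicate 3 at 0.114). The dimmer probe set of KDM6A turned both directions, at 0.0481 and -0.0671, and was not called.

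KDM3A, a lysine 9 demethylase induced by low oxygen, had 4.58, 4.78 and 4.58 in 1dpi_IVM, 4.89, 5.13 and 5.09 in 1dpi, and 4.76, 4.62 and 4.80 in 0dpi. The 1dpi arrays were highest and separate. KDM3A was lower in 1dpi_IVM than in 1dpi (-0.39 ± 0.08, adjusted p = 0.00228) and higher in 1dpi than in 0dpi (0.31, adjusted p = 0.00887). KDM5B, a lysine 4 demethylase, had 8.40, 8.31 and 8.36 in 1dpi_IVM, 8.60, 8.68 and 8.65 in 1dpi, and 8.35, 8.54 and 8.45 in 0dpi, again with 1dpi highest. Its difference was -0.29 ± 0.06 in 1dpi_IVM against 1dpi (adjusted p = 0.00212) and 0.19 in 1dpi against 0dpi (adjusted p = 0.0195), the second call being lost without 1dpi replicate 2 (0.0671), 1dpi replicate 3 (0.0514) or 0dpi replicate 1 (0.0705). Its dimmer probe set turned both directions, at 0.13 and -0.0640, and was not called.

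The other 5 demethylases, KDM2B, KDM3B, KDM4C, KDM5A and KDM5C, were called in neither comparison and lay between -0.09 (KDM5A) and 0.18 (KDM2B) in 1dpi_IVM against 1dpi. A dimmer KDM3B probe set was called lower in 1dpi than in 0dpi (-0.22, adjusted p = 0.0427), with overlapping groups. KDM2A, which acts on lysine 36 at unmethylated CpG islands, was called lower in 1dpi than in 0dpi at -0.18 ± 0.06 (adjusted p = 0.0312), and dropping either of 1dpi replicates 1 and 2 or 0dpi replicates 2 and 3 took the adjusted p to between 0.084 and 0.0969. KDM4A, a lysine 9 and 36 demethylase, differed by -0.21 ± 0.08 with overlapping groups (adjusted p = 0.0451), and its call was lost without any 1 of 6 arrays (1dpi_IVM replicate 1 at 0.06, 1dpi_IVM replicate 2 at 0.0501, 1dpi replicate 1 at 0.088, 1dpi replicate 2 at 0.159, 0dpi replicate 2 at 0.149 and 0dpi replicate 3 at 0.116).

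Remodellers were called higher in 7 of 25 genes and lower in 5 in 1dpi_IVM against 1dpi, with a median of 0.05, and none of the 5 stayed below 0 after poly-A centring. These shares are near those of all genes, 30.4% and 26.1%. Between 1dpi and 0dpi, 5 were called higher in 1dpi and 9 lower, beside 25.3% and 29.5% of all genes, and of the 5 only CHD7 (0.13) and CHD5 (0.01) lay above 0 after poly-A centring, neither of them called. Beside RBBP4 and RBBP7, the higher genes were 5 of the 11 SMARC genes, whereas 3 of the 10 CHD genes were called lower (above 0 after poly-A centring) and 0 higher, with 4 at an unadjusted p below 0.05. CHD2 and CHD9 lay at or below the negative control level.

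SMARCD1, a subunit of the SWI/SNF complex that links it to transcription factors, had 5.78, 6.29 and 6.17 in 1dpi_IVM, 5.25, 5.45 and 5.29 in 1dpi, and 5.82, 5.70 and 5.92 in 0dpi. Again 1dpi was low, and 1dpi_IVM was spread widely. SMARCD1 was higher in 1dpi_IVM than in 1dpi by 0.75 ± 0.12 (adjusted p = 0.000393) and lower in 1dpi than in 0dpi (-0.48, adjusted p = 0.00711). SMARCB1, a core subunit of the same complex, was higher in 1dpi_IVM than in 1dpi by 0.48 ± 0.05 (adjusted p = 2.98e-05).

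The motors of that complex are SMARCA4 and SMARCA2. SMARCA4 (BRG1) had 8.13, 8.17 and 8.07 in 1dpi_IVM, 8.32, 8.30 and 8.18 in 1dpi, and 8.30, 8.32 and 8.31 in 0dpi. It was lowest in 1dpi_IVM, but by a small step, and its call in 1dpi_IVM against 1dpi (-0.14 ± 0.05, adjusted p = 0.0475) was lost without any 1 of 8 arrays (adjusted p between 0.0516 and 0.147) and kept only without 1dpi replicate 3. SMARCA2 (BRM) had 7.87, 7.60 and 7.75 in 1dpi_IVM, 8.21, 8.21 and 8.27 in 1dpi, and 7.80, 7.82 and 7.66 in 0dpi. Its 1dpi arrays were high and separate, and it was lower in 1dpi_IVM than in 1dpi (-0.49 ± 0.07, adjusted p = 0.000215) and higher in 1dpi than in 0dpi (0.47, adjusted p = 0.000319). Among its other 3 probe sets, 1 was called higher in 1dpi_IVM than in 1dpi (0.24, adjusted p = 0.0487) and the others lay at -0.14 and -0.05, not called.

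SMARCA5, the ATPase of the ISWI complexes that space nucleosomes, was called in opposite directions by its 2 probe sets. The brighter one had 8.63, 8.64 and 8.56 in 1dpi_IVM, 8.24, 8.30 and 8.20 in 1dpi, and 8.52, 8.68 and 8.65 in 0dpi, with 1dpi lowest. The dimmer one had 5.70, 6.01 and 5.59 in 1dpi_IVM, 6.39, 6.34 and 6.70 in 1dpi, and 5.59, 5.66 and 5.55 in 0dpi, with 1dpi highest. The differences in 1dpi_IVM against 1dpi were 0.36 ± 0.06 (adjusted p = 0.000335) and -0.71 ± 0.12 (adjusted p = 0.000431), so no direction is given for the gene.

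SMARCAD1, a remodeller that follows the replication fork, and SMARCE1, a SWI/SNF subunit, were also called higher in 1dpi_IVM than in 1dpi, at 0.22 ± 0.06 and 0.14 ± 0.04. Both calls depended on single arrays: that of SMARCAD1 was lost without 1dpi_IVM replicate 1 (adjusted p = 0.0516) or 1dpi replicate 1 (0.0503), and that of SMARCE1 without 1dpi_IVM replicate 3 (0.0743), 1dpi replicate 1 (0.0721) or 1dpi replicate 2 (0.0635). Their dimmer probe sets gave larger values, 1.47 ± 0.26 for SMARCAD1, whose arrays spread with an SD of 0.44 in 1dpi_IVM and 0.52 in 0dpi, and 0.80 ± 0.11 for SMARCE1.

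The CHD remodellers carry chromodomains beside their motor. CHD7, which acts at enhancers in neural crest and neural progenitors, had 5.47, 5.64 and 5.42 in 1dpi_IVM, 5.94, 6.15 and 6.19 in 1dpi, and 5.37, 5.51 and 5.37 in 0dpi. High and separate values marked 1dpi, and CHD7 was lower in 1dpi_IVM than in 1dpi (-0.58 ± 0.08, adjusted p = 0.00016) and higher in 1dpi than in 0dpi (0.68, adjusted p = 5.72e-05). Its other 2 probe sets, both near the negative controls, were at -0.08 and -0.10 and were not called. CHD5, a neuronal remodeller, had 3.85, 3.81 and 3.81 in 1dpi_IVM, 4.43, 4.40 and 4.13 in 1dpi, and 3.997, 3.73 and 3.57 in 0dpi, likewise high in 1dpi but close to the negative control level of 3.47. Its differences were -0.50 ± 0.11 (adjusted p = 0.00268) and 0.55 (adjusted p = 0.00141). Over 13 of 16 neuronal marker genes the mean log2 signal was 6.45 to 6.50 in 1dpi_IVM, 6.73 to 6.81 in 1dpi and 6.30 to 6.39 in 0dpi, with SYT1 at the negative control level, and its part in the CHD5 values was not tested.

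CHD4, the motor of the NuRD deacetylase complex, had 9.39, 9.35 and 9.46 in 1dpi_IVM, 9.53, 9.52 and 9.49 in 1dpi, and 9.39, 9.45 and 9.43 in 0dpi. The 1dpi arrays were highest without overlap, but the difference of -0.11 ± 0.05 in 1dpi_IVM against 1dpi was not called (adjusted p = 0.0655), though it was without 1dpi_IVM replicate 3 (0.0411). CHD3, its close relative, was called lower at -0.20 ± 0.07, which did not hold if replicate 1 (0.0972) or 2 (0.0557) of 1dpi_IVM, or replicate 1 (0.0911) or 3 (0.0749) of 1dpi, was dropped. MTA2, a scaffold of the NuRD complex, was at 0.14 ± 0.05 by its brighter probe set (adjusted p = 0.0538, not called) and at 1.00 ± 0.09 by its dimmer one (adjusted p = 4.14e-06).

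**Figure D4:**
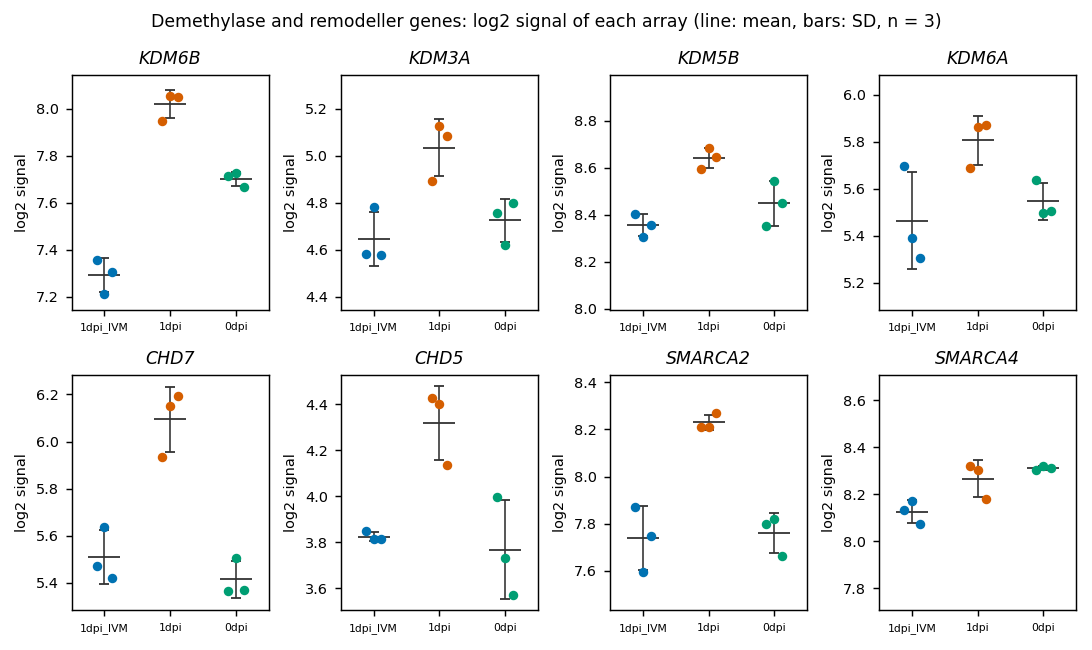
Log2 signal of each array for 4 demethylase and 4 remodeller genes, with the 3 groups on the horizontal axis; points are arrays, the line is the group mean and bars are the SD (n = 3). The 1dpi arrays are the highest for KDM6B, KDM3A, KDM5B, CHD7, CHD5 and SMARCA2 on the scale as deposited, and after poly-A centring none of them is called lower in 1dpi_IVM than in 1dpi, KDM6B lying at -0.0783.

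The other 13 remodellers were not called in 1dpi_IVM against 1dpi and lay between -0.15 (SMARCC2, a scaffold of the SWI/SNF complex) and 0.16 (CHD1L, a remodeller of DNA repair). Among them, SMARCC1 was at -0.11 ± 0.05 by its brighter probe set. Its dimmer one was called higher, at 0.25 ± 0.09 (adjusted p = 0.0381), without overlap of the groups. In 1dpi against 0dpi, MTA1 (0.30 ± 0.10), a NuRD scaffold, was called higher (below 0 after poly-A centring by 0.55) and CHD1L (-0.31 ± 0.11) lower, the groups of CHD1L overlapping. The MTA1 call ended when 1dpi replicate 2 was dropped (adjusted p = 0.122), as with replicate 1 (0.0945) or 3 (0.107) of 0dpi, and that of CHD1L without any 1 of 5 arrays (1dpi_IVM replicate 2 at 0.0502, 1dpi replicate 1 at 0.139, 1dpi replicate 2 at 0.0773, 0dpi replicate 2 at 0.127 and 0dpi replicate 3 at 0.106). CHD6 (-0.22, adjusted p = 0.0121) and the brighter probe set of MTA2 (-0.23, adjusted p = 0.00458) were called lower in 1dpi than in 0dpi and kept that call without any 1 array.

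Remodelling genes outside the symbol rule were called higher in 1dpi_IVM than in 1dpi in 11 of 24 cases and lower in 3. Over all genes the shares were 30.4% and 26.1%. The lower 3 were INO80C (-0.50), ARID2 (-0.33) and ARID1A (-0.26), all 3 smaller in size than the poly-A shift of 0.65. ATRX (1.10 ± 0.15), which places histone H3.3 in repeats, ACTL6A (0.74 ± 0.06), a subunit of the SWI/SNF complex of progenitor cells, and INO80B (0.73 ± 0.06) were among the higher ones. Histone chaperones, which hand histones to new DNA, were called higher in 10 of 16 cases and lower in 2, beside the same shares of all genes. The lower 2 were ANP32A (-0.52) and SUPT6H (-0.23), both smaller in size than 0.65. ASF1B (1.95 ± 0.08), CHAF1B (1.09 ± 0.07), CHAF1A (1.01 ± 0.07) and NASP (0.97 ± 0.05), all tied to DNA replication, had the widest differences, and ASF1B, CHAF1B, NASP and ANP32E were also called higher in 1dpi_IVM than in 0dpi (0.37, 0.34, 0.22 and 0.27). The dividing-cell markers were likewise called higher in 1dpi_IVM than in 0dpi in 12 of 34 cases, beside 2.16% of all genes. The part of these markers was not tested.

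Readers were called higher in 5 of 11 genes (CBX3, BRD2, CBX1, CBX5 and BRD8) and lower in 2 (BRD1 and CBX7, both above 0 after poly-A centring) in 1dpi_IVM against 1dpi, with a median of 0.17, beside 30.4% and 26.1% of all genes. Relative to 0dpi, 1dpi had 2 readers called higher (BRD1 and CBX7, neither above 0 after poly-A centring) and 5 lower (CBX3, BRD2, CBX1, CBX5 and BRD8), beside 25.3% and 29.5% of all genes. CBX3, CBX1 and CBX5 encode the HP1 proteins gamma, beta and alpha, which bind methylated lysine 9 of histone H3 in packed chromatin.

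CBX3 had log2 signals of 12.16, 12.12 and 12.12 in 1dpi_IVM, 11.35, 11.25 and 11.29 in 1dpi, and 12.02, 11.95 and 11.97 in 0dpi. All groups were separate, with 1dpi low and 1dpi_IVM slightly above 0dpi. CBX3 was 1.79-fold higher in 1dpi_IVM than in 1dpi (0.84 ± 0.05, adjusted p = 1.85e-07) and lower in 1dpi than in 0dpi (-0.68, adjusted p = 9.37e-07), and its second probe set gave 1.24 ± 0.05 and -1.03. The difference between 1dpi_IVM and 0dpi was 0.16 ± 0.05 and was not called (adjusted p = 0.1).

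CBX1 had 7.14, 7.12 and 7.20 in 1dpi_IVM, 6.70, 6.73 and 6.74 in 1dpi, and 7.04, 7.03 and 7.00 in 0dpi, in the same order as CBX3. It was higher in 1dpi_IVM than in 1dpi by 0.43 ± 0.04 (adjusted p = 1.61e-05), and CBX5 by 0.39 ± 0.06 (adjusted p = 0.000274). The dimmest probe sets above the negative controls gave 0.04 for CBX1 and 0.16 for CBX5, neither called. Their mean signals were low, at 3.71 and 3.88. CBX7, a Polycomb reader, was lower in 1dpi_IVM than in 1dpi by a log2 difference of -0.31 ± 0.07 (adjusted p = 0.00481). Its relatives CBX6 and CBX8 were at -0.11 and -0.05 and were not called. After poly-A centring by 0.65 all 3 of these Polycomb readers lay above 0. A dimmer CBX7 probe set gave -0.09 in 1dpi_IVM against 1dpi and was not called. In 1dpi against 0dpi it gave -0.08, also not called, where the brighter one gave 0.27.

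The bromodomain proteins bind acetylated histones. BRD2, which helps transcription through acetylated chromatin, had 8.03, 7.93 and 8.02 in 1dpi_IVM, 7.40, 7.44 and 7.35 in 1dpi, and 8.23, 8.21 and 8.35 in 0dpi. The groups were separate, with 1dpi lowest and 0dpi highest. BRD2 was higher in 1dpi_IVM than in 1dpi by 0.60 ± 0.06 (adjusted p = 7.55e-06), lower in 1dpi than in 0dpi (-0.87 ± 0.06, adjusted p = 5.21e-07) and lower in 1dpi_IVM than in 0dpi (-0.27 ± 0.06, adjusted p = 0.02). The last call was lost without 1dpi_IVM replicate 2 (0.0827) or 0dpi replicate 3 (0.0696) and after poly-A centring (-0.17, adjusted p = 0.109), and a second, dimmer probe set gave 0.22 in 1dpi_IVM against 1dpi, -0.25 in 1dpi against 0dpi and -0.03 in 1dpi_IVM against 0dpi, none of them called.

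BRD1, a scaffold of the HBO1 acetyltransferase complex, had 6.68, 6.71 and 6.52 in 1dpi_IVM, 7.02, 7.01 and 7.10 in 1dpi, and 6.65, 6.66 and 6.74 in 0dpi. Its 1dpi arrays were high and separate, with differences of -0.41 ± 0.06 in 1dpi_IVM against 1dpi (adjusted p = 0.000232) and 0.36 in 1dpi against 0dpi (adjusted p = 0.000617). BRD8, a subunit of the NuA4 complex, was higher in 1dpi_IVM than in 1dpi by 0.18 ± 0.06, a call lost without any 1 of 4 arrays, with an adjusted p of 0.119 without 1dpi_IVM replicate 1, 0.0749 without 1dpi_IVM replicate 3, 0.073 without 1dpi replicate 2 and 0.115 without 1dpi replicate 3. A dimmer BRD8 probe set gave -0.06 in that comparison and was not called.

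**Figure D5:**
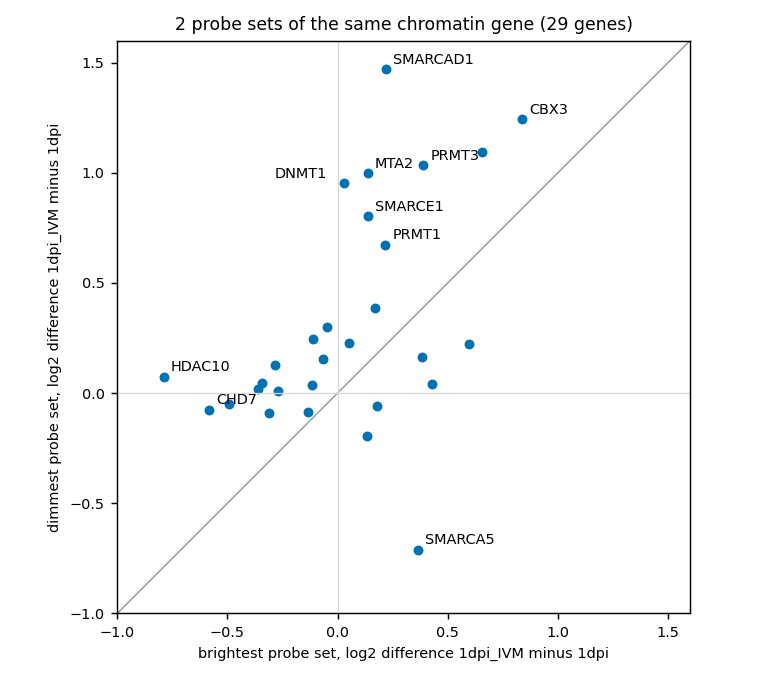
Log2 difference in 1dpi_IVM against 1dpi of the brightest probe set of a gene (horizontal axis) and of its dimmest probe set above the negative controls (vertical axis), for 29 chromatin genes; the line marks equal values. The points of 23 genes lie above the line, SMARCAD1, DNMT1, HDAC10 and MTA2 farthest above it, and SMARCA5 lies far below it.

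How far the answer depended on the probe set was measured in 29 genes that had a second probe set above the negative controls. In 1dpi_IVM against 1dpi the dimmest probe set gave the higher difference in 23 of the 29 genes (79.3%), beside 66.2% of 1634 genes of all kinds, and the medians were 0.15 for the dimmest and 0.05 for the brightest, beside 0.12 and 0.04 over all kinds. The dimmest probe set lay over 0.5 above the brightest in 7 genes (24.1%), against 24.9% of all kinds, and over 0.5 below it in SMARCA5 alone, 3.45% against 10.4%. Both probe sets were called in 661 of the 1634 genes of all kinds, in the same direction in 528 and in opposite directions in 133. The dimmest gave the larger size in 341 of those 528. Among the 29 chromatin genes both were called in 7, in opposite directions in SMARCA5. The other 6 had the same direction, with the dimmest giving the larger size in all 6. PRMT5 (1.09 beside 0.66), PRMT3 (1.04 beside 0.39), PRMT1 (0.67 beside 0.22) and CBX3 (1.24 beside 0.84) are examples of the 6, so their direction did not depend on the probe set and their size did.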

How the data were processed

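RNA of pooled axolotl cord tissue (150 ng per array) was hybridized to a custom Affymetrix axolotl array. The authors made the log2 values by RMA (background correction, quantile normalization and probe set summary) in Affymetrix Expression Console; no version is given in the sources read. The table held 20080 probe sets with 0 missing values from 2.65 to 14.6. The 45 control probe sets (24 poly-A, 18 hybridization, 3 negative) were left out of the tests, and 0 columns belonged to no listed sample. A probe annotation pairs 10951 probe sets with exactly 1 gene symbol, and the other 9084 do not carry exactly 1. RMA ties every array to 1 distribution, so a shift shared by most genes is removed. Scanner counts are not used here, and the number of arrays limits the precision, though not alone. Some dim probe sets spread more widely, and probe sets of the same gene can differ. Array medians were 5.84 to 5.89, and arrays correlated within groups at r = 0.997 to 0.999. Between groups, over all probe sets tested, r was 0.996 to 0.997 for 1dpi_IVM with 0dpi. It was 0.967 to 0.968 for 1dpi_IVM with 1dpi and 0.971 to 0.972 for 1dpi with 0dpi. The 1dpi arrays thus stood apart over the whole array and not only in chromatin genes.

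limma 3.58.1 in R 4.3.3 was fitted over 9 arrays with 1 coefficient per group, 2-sided, and p-values were adjusted by Benjamini-Hochberg over 20035 probe sets. It was tested on simulated data. A gene is called at an adjusted p below 0.05, and its brightest probe set by mean signal stands for it. A probe set is at the negative control level if its mean is at or below 3.47. Groups overlap if their ranges of array values do.

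The symbols chose the members, and 79 of 79 were found in the RefSeq gene table. Array values are given for up to 3 called genes per class and comparison, those with the largest difference and no overlap of groups. They are also given for EZH2, SUZ12, EED, RBBP4, RBBP7, DNMT1, HDAC1, HDAC2, HDAC3, SIRT1, CHD4 and SMARCA4, and for members whose probe sets were called in opposite directions. SIRT2 was added after its values were seen. The members and lists (acetyltransferases, deacetylase partners, Polycomb partners, other histone methylation genes, DNA methylation partners, other remodellers, histone chaperones and cell type markers) were chosen with earlier results of these data known. Alternatives were each array left out, the replicate number as a block, trend and robust moderation, only the groups compared, filters on dim probe sets, other normalizations and scalings, another threshold, and other probe sets of a gene.

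Ependymoglia, oligodendrocyte and epithelium markers, listed beside those in the results, were called higher in 2 of 10, 1 of 3 and 4 of 9 measured cases and lower in 4, 2 and 2 in 1dpi_IVM against 1dpi. Over all genes, 30.4% were called higher and 26.1% lower in that comparison.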

Additional observations from a re-analysis of the deposited data

Results flagged for a closer look

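Poly-A spike-ins lie outside the main measurement and differed between groups. Their mean was higher in 1dpi than in 0dpi by 0.55 on the log2 scale and lower in 1dpi_IVM than in 1dpi (-0.65), whereas the hybridization controls, added after labelling, differed by 0.16 and -0.02 in the same comparisons. The cause was not tested.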

How the results depend on the processing

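Over 1686 settings of single genes, 1553 kept their side of the threshold, 97 lost a call, 20 gained one and 16 reversed. The single genes were only those given with array values, apart from SIRT2, and not all chromatin genes. Many of them were picked in these data for a large called difference without overlap of groups. The counts therefore do not give the stability of the whole chromatin set. A reversal was counted only where a call was involved, so some uncalled values among the 1553 changed sign. Poly-A centring was not among these single-gene settings, so its turns of direction are not in the 16. Of 420 recounts, which did include poly-A centring, 344 stayed within 1.5 times the main count and 76 did not. Repeating the quantile normalization, or leaving out probe sets at the negative control level, changed none of these results. The cause of the changes below was not tested, apart from those that follow from the setting itself.
Leaving out the dimmest 50% of probe sets also took out members, and the single-gene values numbered 66 in place of 90. Lower counts under this filter need not be lost calls, and the share of all remaining probe sets called is not given. In 1dpi against 0dpi, called deacetylases, demethylases, remodellers and all higher genes then numbered 5, 2, 9 and 9. In 1dpi_IVM against 1dpi the deacetylases were 5 and the demethylases 2. Against 0dpi, 1dpi_IVM had 1 deacetylase, 1 remodeller, 3 readers and 3 higher genes. With the dimmest probe set of each gene, an alternative chosen after seeing the data, 9 genes were higher and 2 readers called in 1dpi against 0dpi, 9 genes were lower, 2 demethylases and 2 readers called in 1dpi_IVM against 1dpi, and 1 gene was lower and 0 readers called in 1dpi_IVM against 0dpi. Among the genes followed singly, it reversed SETD3 (0.30 in 1dpi_IVM against 1dpi, -0.37 in 1dpi against 0dpi), SMARCA5 (-0.71 and 0.88), KDM5B (0.13 and -0.0640), KDM6A (0.0481 and -0.0671) and HDAC10 (0.0741 and -0.00363). In 1dpi against 0dpi it also reversed CHD7 (-0.00294) and SMARCA2 (-0.18). Outside those genes, by the same rule, it turned BRD8 (-0.06 in 1dpi_IVM against 1dpi, 0.13 in 1dpi against 0dpi). SETD4 (0.02) and SMARCC1 (0.25) turned in the first of these comparisons, CHD6 (0.06) and CBX7 (-0.08) in the second.
The mean of all probe sets gave 11 higher genes in 1dpi against 0dpi, 2 demethylases in 1dpi_IVM against 1dpi, and 1 higher gene, 0 lower genes and 0 demethylases in 1dpi_IVM against 0dpi. Among the genes followed singly, it reversed SMARCA5 (-0.17 in 1dpi_IVM against 1dpi, 0.25 in 1dpi against 0dpi) and, in 1dpi against 0dpi, SETD3 (-0.0943) and SMARCA2 (-0.0128). Trend and robust moderation gave 3 higher genes, 2 methyltransferases, 2 readers and 1 remodeller in 1dpi_IVM against 0dpi.
Poly-A centring gave 74 higher and 0 lower genes in 1dpi_IVM against 1dpi (13 deacetylases, 18 methyltransferases, 10 demethylases, 22 remodellers and 11 readers). Over all probe sets on that scale, 87.5% were called higher and 5.6% lower. In 1dpi against 0dpi it gave 1 higher and 75 lower genes (14 deacetylases, 18 methyltransferases, 11 demethylases, 22 remodellers and 11 readers), beside 6.32% and 84.6% of all probe sets. In 1dpi_IVM against 0dpi it gave 6 higher and 1 lower (1 deacetylase, 2 methyltransferases, 1 demethylase and 3 readers), beside 8.03% and 1.71%. Centring on each array's median left 46.4%, 52.9% and 37.1% of called probe sets higher in the 3 comparisons. An unadjusted p below 0.05 with a 2-fold difference left 2 higher genes, both methyltransferases, in 1dpi_IVM against 1dpi, and 0 in every other count.
Same-numbered arrays deviated together at r = -0.225 to 0.231, above 0.1 in 1 of 9 pairs. With 3 arrays per group, these values cannot show whether arrays of the same number belong together. The main fit did not use the numbers. Fitting only the groups compared ended, among the genes followed singly, the calls of SMARCA4 in 1dpi_IVM against 1dpi and of HDAC1 in 1dpi against 0dpi. The replicate block gave 25 higher and 14 lower genes in 1dpi_IVM against 1dpi. For 1dpi against 0dpi these were 14 and 26, and for 1dpi_IVM against 0dpi they were 0 and 1, with 0 readers.
Leaving out 1 array in turn gave 22 to 27 higher and 14 lower genes in 1dpi_IVM against 1dpi, with 7 to 10 deacetylases, 8 to 10 methyltransferases, 3 to 5 demethylases, 8 to 11 remodellers and 6 to 8 readers. In 1dpi against 0dpi it gave 13 to 17 higher and 22 to 29 lower genes, with 5 to 9 deacetylases, 9 to 11 methyltransferases, 2 to 6 demethylases, 11 to 14 remodellers and 7 to 8 readers. In 1dpi_IVM against 0dpi it gave 0 to 1 higher genes (1 without 1dpi_IVM replicate 1, SMARCD1, or 1dpi replicate 3, SUZ12) and 1 to 2 lower genes (1 without 1dpi_IVM replicate 2 or 0dpi replicate 3), with 0 to 1 methyltransferases, remodellers and readers. Of the calls, 9 of 41, 13 of 45 and 1 of 2 were lost at least once.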
